A study of Mus musculus with 4 samples.

Results

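The contractile genes of fast-twitch skeletal muscle were examined in RNA of dermal cells from mouse skin, as a gauge of the muscle left in each preparation. The members were 10 genes given by name: Acta1, Ckm, Myh1, Myh2, Myh4, Mylpf, Tnnt3, Tnni2, Tnnc2 and Actn3. No rule on their values was used, but they were chosen with earlier results of these data known. They are 10 of the 18193 genes that had a probe set of their own on the arrays, and every one of their 16 probe sets was used. In a skeletal muscle fibre, myosin heavy chains pull on filaments of skeletal actin, troponin and calcium switch the pull on and off, and creatine kinase restores the ATP that is spent. Mouse skin lies on a thin sheet of skeletal muscle, the panniculus carnosus, which is known to be made mostly of fast-twitch fibres, so dissected skin can carry this muscle along.

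The study compared 4 dermal preparations of female C57BL/6 mice, aged 10 weeks by the labels, with 1 array for each. The virgin array held abdominal dermis of virgin mice, the dorsal and abdominal arrays held dermis of the back and of the abdomen of mice at 15 days post-coitus (dpc), and these mice were injected intradermally with the solvent DMSO. The PP2 array held abdominal dermis of 15 dpc mice injected in its place with PP2, an inhibitor of Src family kinases. Injections were given 2 times a day for 4 days, from 12 dpc in pregnant mice, and the sample descriptions give 16 dpc where the titles give 15. By the methods, fat under the skin was cut away and the dermal cells were released with enzymes, passed through a strainer and collected; removal of muscle is not mentioned. The sources used here do not give the number of mice behind an array. With 1 array for each condition, no difference below has an error or a test, and in bulk RNA fewer cells of a type and less RNA per cell cannot be told apart.

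Each probe set, which reads a single transcript region through several short probes, had a MAS5 signal, which is a linear intensity in arbitrary units, and a detection call of present, marginal or absent. A gene was counted as detected if any probe set of it had the call present. The share of all probe sets called present was 58.4% to 59.7%. The dimmest signal called present fell from 10.7 (virgin) through 9.36 (dorsal) and 6.57 (abdominal) to 3.96 (PP2). The control genes for RNA quality did not single out the same array. The 3′ to 5′ signal ratio for Gapdh was highest on the PP2 array, at 5.84, against 1.41 to 2.97 on the others. That for β-actin was highest on the dorsal array, at 4.14, against 2.03 to 2.70 on the others. Probe sets that no array called present had median signals of 19.5, 20.7, 16.8 and 13.7 in the order virgin, dorsal, abdominal and PP2, so the level of undetected signals was itself lowest on the PP2 array. The part of these values in the results on the PP2 and dorsal arrays was not tested.

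Most of the fast-twitch genes were not detected in any dermal preparation. Of the 10 genes, 4 were detected on at least 1 array (Acta1, Myh1, Mylpf and Tnnt3), and 6 on none (Ckm, Myh2, Myh4, Tnni2, Tnnc2 and Actn3). Over all genes, 74.7% were detected on at least 1 array. The virgin array detected 4 of the 10, the PP2 array 3, and the dorsal and abdominal arrays 2 each, whereas all genes were detected at 67.4%, 69.8%, 67.4% and 68.5% on these arrays in the same order. Mylpf was the single member detected on all 4 arrays, as 62.0% of all genes were. By probe set, 5 of 16 were called present on at least 1 array, against 70.3% of all probe sets with a single gene, and 0 of the 16 had a marginal call. A probe set that was not called present gives an upper limit on a signal and does not show that the transcript was missing.

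**Figure D1:**
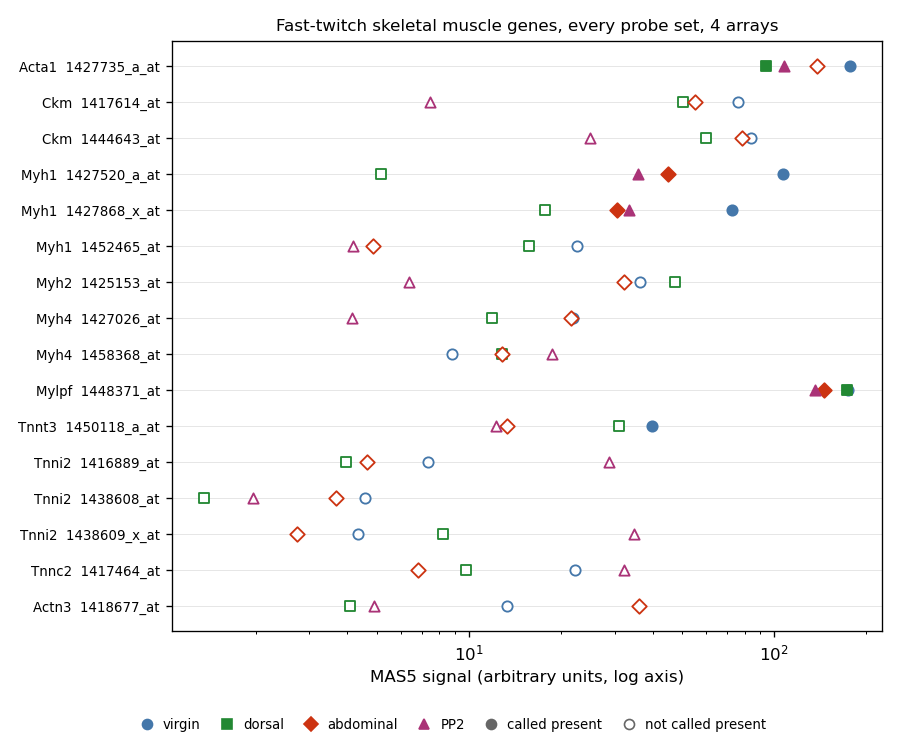
MAS5 signal (arbitrary units, log axis) of all 16 probe sets of the 10 fast-twitch genes, with 1 symbol for each array, filled where the probe set was called present and open where it was not. Filled symbols stand in 5 rows, those of Acta1, Mylpf, Tnnt3 and 2 probe sets of Myh1, and none of the signals exceeds 177.

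The motor of the fast fibre was represented by Myh1 alone. Myh1 encodes the IIx myosin heavy chain, Myh2 the IIa chain and Myh4 the IIb chain, which is the fastest of them. Myh1 had the largest range between arrays among detected members. By the probe set whose name ends in a_at, its signal was called present at 107 (virgin), 45.0 (abdominal) and 35.9 (PP2), and absent at 5.17 (dorsal). By that ending in x_at, the one with the highest mean log2 signal, it was present at 72.6, 30.5 and 33.4 on those arrays and absent at 17.8 on the dorsal array. Both therefore placed the virgin array first and the dorsal array last, and they differed in the order of the abdominal and PP2 arrays. The third probe set of Myh1 was absent on all 4 arrays, at 4.17 to 22.6, so the probe sets of this gene disagreed on whether it was detected.

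Myh2 was absent on every array, at 36.4 on the virgin, 47.5 on the dorsal, 32.2 on the abdominal and 6.38 on the PP2 array. Myh4, the myosin of the fastest fibres, had 2 probe sets, at 4.14 to 21.9 and at 8.82 to 18.7, and neither was called present anywhere. The first of them was dimmest and the second brightest on the PP2 array, so their order over the arrays carries no direction. The x_at probe set of Myh1 belongs to a class that shares probes with other transcripts, and myosin heavy chain genes are close in sequence. Binding of a related myosin transcript to it was not tested.

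Myh2, Myh1 and Myh4 lie side by side on mouse chromosome 11, and they differed in detection. The 250 bases before the start of each are shown because 1 of these neighbours was detected and the others were not. They come from RefSeq on GRCm38.p6, from the + strand, at chr11:67170777-67171026 for Myh2, chr11:67199852-67200101 for Myh1 and chr11:67237562-67237811 for Myh4. The capitals mark the longest run of bases that all 3 share, 20 bases long, which begins 130, 165 and 163 bases before the start in the same order.
Myh2: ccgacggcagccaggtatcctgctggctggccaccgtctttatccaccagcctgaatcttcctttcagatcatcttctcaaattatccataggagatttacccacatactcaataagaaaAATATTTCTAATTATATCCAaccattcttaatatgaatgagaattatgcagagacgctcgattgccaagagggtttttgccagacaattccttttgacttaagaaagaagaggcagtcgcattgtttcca
Myh1: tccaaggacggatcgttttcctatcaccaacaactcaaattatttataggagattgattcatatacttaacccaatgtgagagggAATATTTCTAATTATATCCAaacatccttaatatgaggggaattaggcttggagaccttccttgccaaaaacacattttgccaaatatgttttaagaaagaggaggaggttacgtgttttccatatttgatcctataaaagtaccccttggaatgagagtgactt
Myh4: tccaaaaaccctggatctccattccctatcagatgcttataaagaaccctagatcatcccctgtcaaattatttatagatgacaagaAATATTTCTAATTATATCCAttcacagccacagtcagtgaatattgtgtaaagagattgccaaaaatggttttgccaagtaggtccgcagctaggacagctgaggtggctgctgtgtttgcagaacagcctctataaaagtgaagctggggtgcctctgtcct
The run occurs in 3 of the 32851 promoter windows of 300 bases in the RefSeq table, which are these 3. It is shared by the detected Myh1 and the undetected Myh2 and Myh4. Promoter windows were matched for 7 of the 10 members and not for Tnnt3, Tnni2 and Actn3. On either strand, the letters TATAAA stood in 4 of the 7 (Acta1, Myh1, Myh2 and Myh4), against 13.6% of all windows, and the E-box letters CANNTG, to which myogenic factors can bind, in 5 of the 7, against 72.3%. The windows searched, of 300 bases, are longer than the 250 bases shown, and for Myh2 the letters TATAAA lie outside the bases shown. The CArG box, the motif of serum response factor, was found in the windows of Acta1 and Myh4, 2 of 7 against 1.63% of all windows. The MEF2 site, the motif of MEF2 factors, was searched in a strict form, which was found in 0 of the 7, against 0.557% of all windows. Looser forms of the site were not counted. The stretch ttatttatag, which fits a looser form, stands in the bases shown for Myh1 and Myh4, so the 0 does not mean that MEF2 sites are missing. These matches describe the letters of the windows and are not evidence of binding.

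Skeletal actin and the fast regulatory light chain were called present on 3 and 4 arrays. Acta1 encodes the actin of skeletal muscle thin filaments. Its signal was 177 on the virgin, 93.9 on the dorsal and 108 on the PP2 array, all present, and 138 on the abdominal array, where it was called absent although the signal lay between those of arrays that called it present. The virgin array was 1.88-fold higher than the dorsal, 1.64-fold higher than the PP2 and at least 1.28-fold higher than the abdominal array. Acta2, named here as the actin of smooth muscle, was present at 7569 to 16453 over the arrays by its brightest probe set. Binding of a related actin transcript to the Acta1 probe set was not tested. Mylpf encodes the phosphorylatable light chain of fast myosin. Its signals of 175, 173, 146 and 136 on the virgin, dorsal, abdominal and PP2 arrays, all present, spanned a range of 0.37 on the log2 scale, and the virgin array was 1.01-fold to 1.29-fold above the others. Mylpf thus did not follow Myh1, which was absent on the dorsal array.

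Of the fast troponin subunits, 1 of 3 was detected, and on the virgin array alone. Tnnt3 encodes the subunit that binds tropomyosin. Its signal was 39.7 and present on the virgin array, and 31.0, 13.3 and 12.3 and absent on the dorsal, abdominal and PP2 arrays. The virgin array was at least 1.28-fold, 2.99-fold and 3.23-fold above these. Tnni2 encodes the inhibitory subunit, and its 3 probe sets were absent on all arrays: with PP2 left out they lay between 1.35 and 8.25, and on the PP2 array at 28.8, 1.97 and 34.6. Tnnc2, the calcium-binding subunit, was absent at 22.3 on the virgin, 9.78 on the dorsal, 6.80 on the abdominal and 32.2 on the PP2 array. The PP2 array held the brightest signal of Tnnc2 and of 2 of the Tnni2 probe sets, none of them called present.

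The remaining members, one of the Z-disc and one of energy supply, were not detected either. Actn3 encodes the α-actinin that anchors thin filaments at the Z-disc of fast fibres, and it was absent at 13.3, 4.08, 36.0 and 4.90 on the virgin, dorsal, abdominal and PP2 arrays. Ckm encodes the muscle form of creatine kinase, one of the most abundant transcripts of skeletal muscle. By one probe set it was absent at 76.4, 50.1, 55.2 and 7.43, and by the other at 83.9, 59.9, 78.7 and 25.0, in the same order. Both probe sets of Ckm were dimmest on the PP2 array, and neither was called present on any array. On the virgin array their signals exceeded the 39.7 at which Tnnt3 was called present, so the calls did not follow the signals.

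The comparison of the abdominal with the virgin array asks what changed with pregnancy, and those with the PP2 and dorsal arrays what depended on Src kinases and on body site. A gene was called apart when the probe set with its highest mean log2 signal had a ratio above 2 and was present on the brighter array. Against the virgin array, 0 members were higher and 2, Myh1 and Tnnt3, were lower on the abdominal array, against 3.41% higher, 3.55% lower and 6.96% either way among all genes detected on at least 1 of these arrays. Myh1 was 2.38-fold lower by the x_at probe set, which was the one used, and 2.37-fold by the a_at probe set, and Tnnt3 at least 2.99-fold lower. Against the PP2 array, 0 members were called apart, where 8.62% of all genes were, 4.89% of them higher and 3.74% lower on the abdominal array. Against the dorsal array 0 were called apart as well, where 10.2% of all genes were, but Myh1 was at least 1.71-fold higher on the abdominal array by the probe set used and at least 4.80-fold by the a_at probe set. A call could be made for 4, 3 and 3 members in these comparisons, since the rest were undetected on both arrays, so these shares rest on very few genes.

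The median log2 ratio over all 10 members, undetected ones included, was -0.31 for the abdominal over the virgin array, 0.11 over the PP2 array and 0.11 over the dorsal array. Over all genes it was 0.0032, 0.040 and 0.0091 in the same order, and over the 4818 genes whose probe set was never present -0.14, 0.24 and -0.17. Single members spread from -1.72 to 1.44, from -2.64 to 2.88 and from -1.22 to 3.14, and the extremes among them were set by signals not called present. The sign against the PP2 array turned with quantile normalization (-0.15), and against the dorsal array it turned with undetected signals raised to the dimmest present signal (-0.13). All 3 ratios share the abdominal array and are not independent of each other.

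In the other 3 pairs of arrays, each member called apart was higher on the virgin array. Myh1 was at least 4.09-fold higher on the virgin than on the dorsal array by the probe set used and at least 11.4-fold by the a_at probe set. That is 1 of the 4 members for which a call could be made, against 4.72% of all genes, while 0 members and 5.48% of genes were higher on the dorsal array. Over the PP2 array, the virgin signal of Myh1 was 2.17-fold higher by the probe set used and 2.97-fold by the a_at probe set, and that of Tnnt3 at least 3.23-fold. These are 2 of 4 members against 4.34% of genes, with 0 members and 3.27% of genes higher on the PP2 array, 7.6% either way. Between the PP2 and dorsal arrays 0 of 3 were called apart, against 12.1% of all genes (5.46% higher on the PP2 and 6.61% on the dorsal array), though the a_at probe set of Myh1 was at least 3.83-fold higher on the PP2 array. The 4 detected members were all brightest on the virgin array, where 21.6% of the 13375 genes with a detected probe set were brightest. Tnnt3 counts among these 4 only through its call on the virgin array, and without that array 3 members were detected. The virgin signal of Mylpf was only 1.01-fold above the dorsal one. Of these 4, Acta1 and Myh1 were dimmest on the dorsal array and Mylpf and Tnnt3 on the PP2 array. The sum of the 10 signals, 1 probe set for each gene, was 636 on the virgin, 499 on the abdominal, 453 on the dorsal and 405 on the PP2 array. Acta1 and Mylpf were its largest terms on every array. It also includes the 6 members never detected, among them Ckm at 83.9 on the virgin and 25.0 on the PP2 array. The part of background in the order of the sums was not tested.

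Of the other genes of the muscle fibre, about as many were undetected as detected. Lists of sarcomere proteins, of calcium release and excitation, and of energy metabolism held 71 further genes with a probe set, of which 35 (49.3%) were detected on at least 1 array and 36 on none, against 74.7% of all genes. Among the undetected, named here as examples after their values were seen, were Atp2a1, the calcium pump of fast fibres, Cacna1s, the voltage sensor of the muscle membrane, Mb, which encodes myoglobin, and Tcap, the titin cap protein. Many of the detected genes also serve other cells: Tpm1 and Tpm2, tropomyosins that smooth muscle uses as well, were present on all arrays and are also examples picked in this way. The genes of slow-twitch fibres were detected at 2 of 8, namely Tnnc1 and Tpm3. Tpm3 is a tropomyosin of many cell types, while Myh7, the slow myosin heavy chain, and the slow troponins Tnnt1 and Tnni1 were present on no array.

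**Figure D2:**
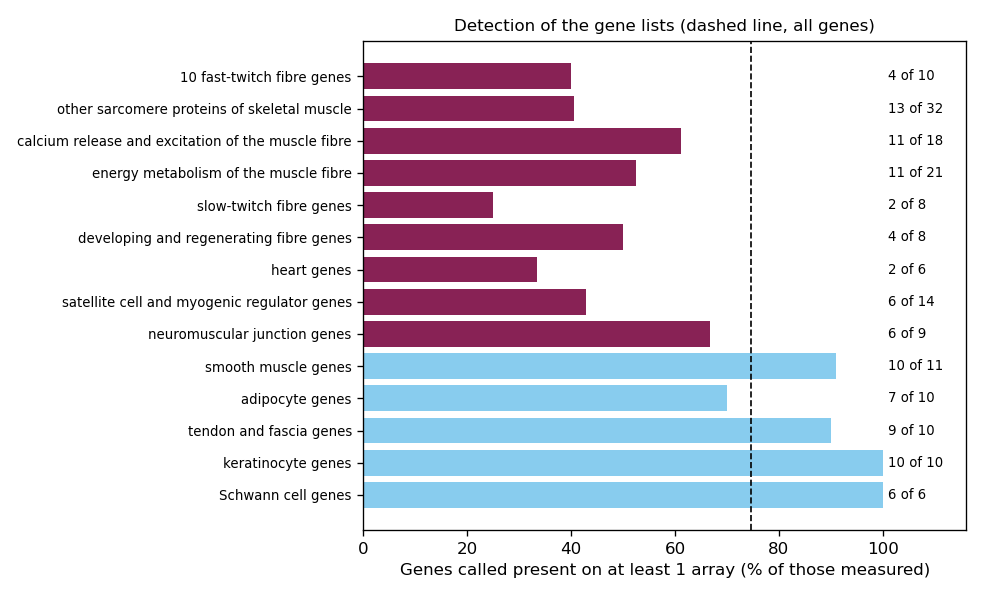
Share of the genes of each list that were called present on at least 1 array, in percent of its measured genes, with the counts at the right. Purple bars are lists of striated muscle, blue bars lists of other cell types, and the dashed line is the share over all genes, 74.7%. All 9 lists of striated muscle end left of the line, the 10 fast-twitch genes at 40.0%, and so does the adipocyte list at 70.0%.

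The sarcomere list held 32 measured genes, of which 13 were detected. Its widest ranges were those of Neb, Nrap, Tmod4 and Ldb3. Neb, which encodes the thin filament ruler nebulin, was present on the virgin array alone, at 42.3, and was 7.61, 1.81 and 27.2 on the dorsal, abdominal and PP2 arrays, the last a marginal call. Nrap, an anchoring protein of developing myofibrils, was present on the virgin array alone as well, at 59.0, although its absent signals on the dorsal and abdominal arrays were 61.8 and 56.1. Ldb3, a Z-disc protein also called ZASP, was present on all 4, at 394 on the virgin, 106 on the dorsal, 577 on the abdominal and 340 on the PP2 array. Tmod4, the tropomodulin of skeletal muscle, ran the other way, with its highest signal of 442 on the dorsal array, 178 and 85.7 on the abdominal and PP2 arrays and an absent 68.8 on the virgin array. Myl1, the alkali light chain of fast myosin, which was picked after its values were seen, was present at 153, 166 and 133 on the virgin, abdominal and PP2 arrays and absent at 46.4 on the dorsal array. Of the 13, 7 were dimmest on the dorsal array, against 30.8% of all genes, and 4 were called higher and 1 lower on the abdominal than on the dorsal array, against 5.25% and 4.96% of all genes.

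Calcium-handling and metabolic genes were detected at 11 of 18 and 11 of 21. Trdn, which encodes triadin of the calcium release complex, was present at 33.6 and 33.9 on the virgin and abdominal arrays and absent at 16.1 and 5.52 on the dorsal and PP2 arrays. Ryr1, the calcium release channel of skeletal muscle, was present at 63.3, 43.1 and 21.9 on the virgin, abdominal and PP2 arrays and absent at 67.0 on the dorsal array. Jph2, which couples the cell membrane to the calcium store, was called present on the abdominal array alone, at 323, but its absent signal on the virgin array was 298, and those on the dorsal and PP2 arrays were 157 and 73.6. Sln, a small inhibitor of the calcium pump, was present on the virgin array alone, at 44.0, and absent at 17.4 to 29.6 on the others. Each gene here is given by its probe set of highest mean log2 signal. The other probe sets of Trdn, Ryr1, Jph2 and Sln were absent on every array. In the calcium list 4 of 11 detected genes were dimmest on the dorsal and 6 on the PP2 array, against 30.8% and 28.1% of all genes. Among the metabolic genes, Phka1, a subunit of phosphorylase kinase, was brightest on the dorsal array at 437, against 139, 145 and 178 on the virgin, abdominal and PP2 arrays. Ppp1r3c, a glycogen-targeting subunit of protein phosphatase, was 688 on the virgin array and 1336, 1355 and 1430 on the dorsal, abdominal and PP2 arrays. Ppp1r3a, its counterpart in muscle, was present on the abdominal array alone at 45.6 and absent at 23.6 to 24.4 on the others. Art1, an ADP-ribosyltransferase, was present at 96.6 and 167 on the virgin and abdominal arrays and absent at 89.0 and 102 on the dorsal and PP2 arrays, so the calls did not follow the signals.

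**Figure D3:**
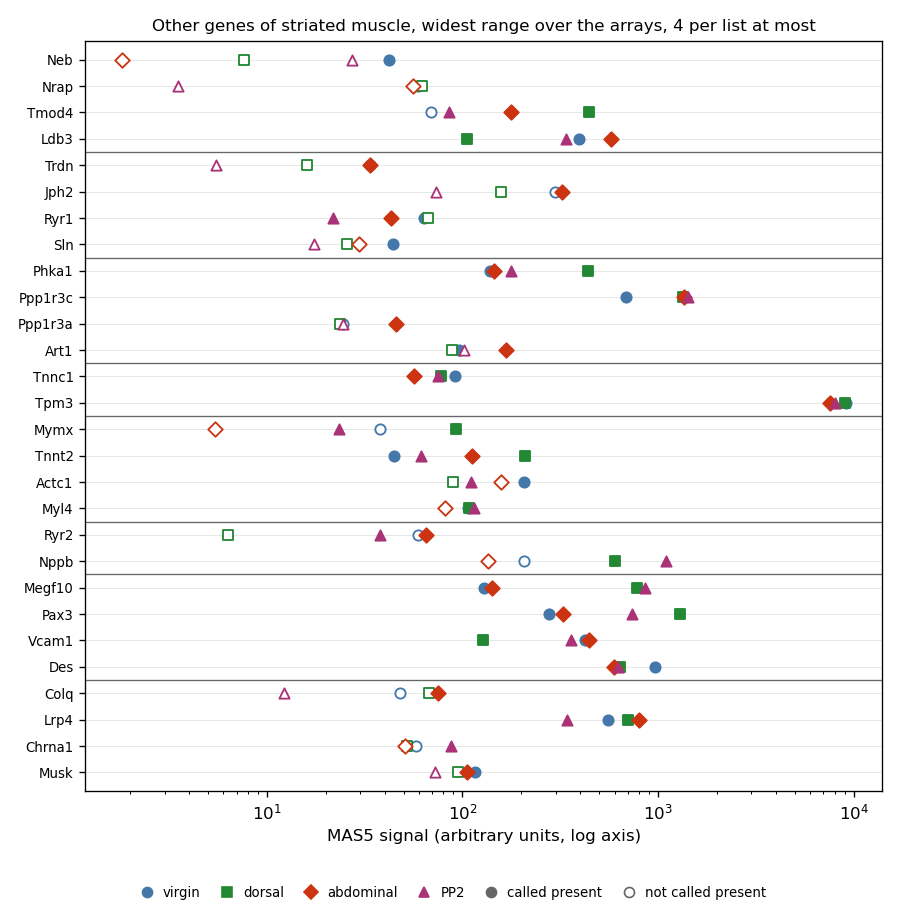
MAS5 signal (arbitrary units, log axis) on the 4 arrays of the genes with the widest range in each further list of striated muscle, filled where called present. From the top, the blocks are sarcomere, calcium and excitation, energy metabolism, slow-twitch, developing fibre, heart, satellite cell and neuromuscular junction genes. Ldb3 has its lowest signal (106) and Tmod4 its highest (442) on the dorsal array.

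Markers of muscle precursors were mostly undetected. Satellite cells, the stem cells of muscle, are marked by Pax7, and muscle formation is driven by Myod1, Myf5, Myog and Myf6; all 5 were present on no array. The list was detected at 6 of 14, by Pax3, Mef2c, Itga7, Vcam1, Des and Megf10, genes that cells outside muscle also use. Pax3, a factor of melanocytes as well as of embryonic muscle, was 277 on the virgin and 328 on the abdominal array but 1297 on the dorsal and 735 on the PP2 array. Megf10 divided the arrays in the same way, at 129 and 141 against 780 and 856. Des, the desmin of all muscle types, was 971 on the virgin array and 598 to 641 on the others by its brighter probe set. Its other probe set, also present on all arrays, was highest on the abdominal array, at 97.6 against 78.8 on the virgin array. Vcam1, an adhesion molecule, was 423, 127, 444 and 358 on the virgin, dorsal, abdominal and PP2 arrays.

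Genes of developing or regenerating fibres were detected at 4 of 8, and the embryonic and perinatal myosins Myh3 and Myh8 were among the undetected. Tnnt2, the cardiac and embryonic troponin T, was present on all arrays, at 44.7 on the virgin, 210 on the dorsal, 112 on the abdominal and 61.6 on the PP2 array. Mymx, a protein of myoblast fusion, was present at 92.6 on the dorsal and 23.4 on the PP2 array and absent at 37.9 on the virgin and 5.46 on the abdominal array. Actc1, the actin of heart and embryonic muscle, was present at 208 on the virgin and 110 on the PP2 array, marginal at 157 on the abdominal and absent at 89.8 on the dorsal array, and Myl4 was 81.1 to 115. Tnnt2 was highest and Actc1 undetected on the dorsal array, so these genes did not share an order. Of the junction between nerve and muscle, 6 of 9 genes were detected. Musk, the receptor that organises the junction, was present at 117 and 105 on the virgin and abdominal arrays and absent at 94.9 and 72.8 on the dorsal and PP2 arrays. Colq, the tail of acetylcholinesterase, was present at 75.2 on the abdominal array alone and absent at 48.1, 67.2 and 12.3 on the virgin, dorsal and PP2 arrays. Chrna1, a subunit of the acetylcholine receptor, was present at 87.3 on the PP2 array alone and absent at 51.1 to 58.1 on the others, and Lrp4, which the epidermis and other tissues use too, on all arrays at 341 to 804.

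Markers of other tissues that border on or run through the dermis were detected at 70.0% to 100% of each list, against 74.7% of all genes. The adipocyte list, at 70.0%, lay below that share. The smooth muscle list was detected at 10 of 11, with Cnn1 the exception, and its summed signal was 37522 on the virgin, 22812 on the dorsal, 45030 on the abdominal and 30999 on the PP2 array. Its detected genes were dimmest on the dorsal array in 8 of 10 cases, against 30.8% of all genes. Of the 4 detected fast-twitch genes, Myh1 and Acta1 were dimmest on that array too, while Mylpf and Tnnt3 were second brightest there and dimmest on the PP2 array. Myh11, the smooth muscle myosin, was 1923, 1117, 3706 and 1207 in the order virgin, dorsal, abdominal and PP2. Tagln was 4874, 2553, 6695 and 3976, and Mylk, the kinase of the myosin light chain, 4403, 2285, 6933 and 5095. Kcnmb1 was absent at 6.86 on the virgin array and present at 50.1 to 92.8 on the others by one probe set. Its other probe set was absent on all arrays, at 41.9 on the virgin array and 9.09 to 21.3 on the others. The adipocyte list was detected at 7 of 10, with Cidec, Lep and Retn undetected. Its summed signal of 30237 to 57303 was lowest on the dorsal and highest on the abdominal array. The tendon and fascia list was detected at 9 of 10, with Chad the exception, and summed to 4482 and 4157 on the virgin and abdominal arrays but to 24998 and 20297 on the dorsal and PP2 arrays. Most of the dorsal sum came from Fmod, a collagen-binding proteoglycan, at 18858. By the probe sets summed, Tnmd (3399 against 629), Kera (628 against 191), Mkx (423 against 144) and Col11a1 (339 against 219) were also brighter on the dorsal than on the virgin array. By the same measure Thbs4, Comp, Scx and Tnc were dimmer on the dorsal than on the virgin array. Keratinocyte genes (10 of 10) summed to 136042 on the dorsal array and 59900 to 100823 on the others, and Schwann cell genes (6 of 6) to 52406 to 67314. The part of any of these cell types in the signals of the fast-twitch genes was not tested.

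The mean profile of the 10 members was 0.42, -0.25, 0.0077 and -0.18 on the log2 scale around its own mean, in the order virgin, dorsal, abdominal and PP2. Among 11085 other genes present on all 4 arrays, the 10 with the most similar profile were Spring1, Scd2, 2210406O10Rik, Fgfr4, Dcn, Fat4, Zfp994, Mndal, Scd1 and Prelid2, which differed from it by 0.026 to 0.044 (root mean square over the 4 arrays). None of the 10 belongs to any of the gene lists used. The profile includes 6 undetected members and has only 4 points.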

How the data were processed

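RNA of dermal cells from 4 conditions was hybridised to Mouse430_2 arrays of Affymetrix, 1 for each condition. For 45101 probe sets the authors deposited the detection call and the MAS5 signal, a linear intensity, made with Affymetrix Expression Console, version 1 in the submitters' processing notes. MAS5 scales every array to one trimmed mean, which was 500.003 on the virgin array. The deposited table of all arrays differed from the single files for 0 probe sets. Signals were used as deposited, without pseudocount. The platform annotation gave 34945 probe sets a single gene, 932 several and 9160 none, and 64 were controls. The 16 probe sets of the 10 members were all used.

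For counts, the probe set of highest mean log2 signal stood for its gene, and the ratio threshold was 2. Where the dimmer array did not call a probe set present, the fold is a lower bound (at least), computed against the larger of its own signal and that array's dimmest present signal. With 1 array per condition no p-value was computed, and precision is limited by the number of arrays. The code was tested on simulated data. Python 3.11.15, NumPy 2.4.6, pandas 2.3.3 and matplotlib 3.10.9 were used. The members and the 13 other gene lists, written from textbook knowledge, were chosen with earlier results of these data known. Genes named are all members, the 4 detected genes of widest range in each list of muscle genes (all of them in shorter lists) and the 10 genes with the nearest profiles. Of the adipocyte, tendon, keratinocyte and Schwann cell lists counts and sums are given, and undetected genes are named to account for a list. The detected tendon genes are named as well, which was decided after their values were seen. Alternatives were other scalings, probe sets, detection filters and fold thresholds. Coordinates are those of the RefSeq promoter table only, since the files name no genome build.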

Additional observations from a re-analysis of the deposited data

How the results depend on the processing

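The 15 alternative values of the members' median log2 ratios each lay within 1.5-fold of the reported ones, though 3 of them had the other sign: -0.15 over the PP2 array with quantile normalization, and -0.05 and -0.13 over the dorsal array with the detected probe set of widest range and with undetected signals at the floor. The number of detected members was 4 with marginal calls counted and with the representative probe set alone. Leaving out each array in turn, which was added after seeing the data, gave 4 without the dorsal, abdominal or PP2 array and 3 without the virgin array. Of 24 alternative counts of members called apart, 16 were close to those reported. Against the virgin array the count of 2 became 4 with no detection filter and 0 at 3-fold. Against the PP2 array the count of 0 became 5 with no detection filter. Against the dorsal array the count of 0 became 1 with quantile normalization, with the probe set of widest range and at 1.5-fold, and 2 with all detected probe sets averaged and with no detection filter. Without the filter the added calls come from signals that were not called present. No paired analysis was possible because each condition has 1 array. Signals near background limit every ratio of these genes.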

Other observations

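Of 6 heart genes, Myh6, Myl7, Tnni3 and Nppa were present on no array. Nppb, a natriuretic peptide gene, was present at 599 on the dorsal and 1100 on the PP2 array and absent at 206 and 135 on the virgin and abdominal arrays. Ryr2, the calcium release channel of the heart, which is also found outside it, was present at 64.9 on the abdominal and 38.1 on the PP2 array and absent at 58.9 and 6.32 on the virgin and dorsal arrays.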
